A study of Mus musculus with 3 samples.

Results

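The genes described here are 37 mouse genes of ribosome biogenesis and of growth pathways known as targets of the transcription factor MYC, out of 31053 genes in the count tables. They were chosen by symbol, with earlier results of these data known, and all 37 had an entry. Their RNA was counted in single cells of 3 pancreatic tumours, 1 library per tumour. The donor mice carried Msi2-Myc and R26-LSL-tdTomato, and the series title gives the MYC transgene as MycT58A and its switch as Musashi2-CreER, a tamoxifen-dependent recombinase driven from the Musashi2 locus. Sorted tdTomato+ pre-cancer epithelial cells, taken 5 weeks after tamoxifen, were grafted into the pancreas of NSG mice, an immunodeficient strain, and EpCAM+ epithelial cells were sorted from the end-stage tumours for droplet sequencing of 3′ RNA ends with unique molecular identifiers (UMIs). Only the titles tell the 3 tumours apart, so they are 1 group, with no MYC-negative control, and the comparisons here are between kinds of cells within each tumour.

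Ribosomes are assembled in the nucleolus. RNA polymerase I makes the precursor ribosomal RNA, small nucleolar ribonucleoproteins (snoRNPs) modify and help to cut it, and separate sets of assembly factors build the small and the large subunit. MYC is known to raise transcription of many of these factors, together with enzymes of polyamine and nucleotide synthesis, and acinar cells of the normal pancreas are known for very high protein synthesis.

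The tables held 11502184, 9737397 and 16521484 UMIs for tumours 1, 2 and 3, and 1431, 253 and 2804 barcodes were kept as cells, with a median of 1621, 1333 and 1605.5 UMIs. Of 4526 barcodes that passed the size filters, 240 did so in more than 1 library. A barcode was assigned to the library that held at least 60% of its UMIs. This removed 122, 258 and 28 barcodes, 50.5% of those of tumour 2, and left 0 shared, as such a rule must. Cells were then sorted by RNA into marker gates. The ductal gate was set by Tff1 and Lgals4, genes of gastric-type secretory epithelium, and held 370, 88 and 194 cells of tumours 1, 2 and 3. The acinar gate was set by Ctrb1 and Clps, genes of digestive secretion, and held 424, 47 and 2036 cells. At a share of 90% in place of 60%, 1 ductal-gate cell of tumour 1 and 1 acinar-gate cell of tumour 3 were left. Nearly all cells of these gates thus had over 10% of their barcode's UMIs in the other libraries. Whether UMIs passed between libraries was not tested. Markers not used by the gates followed the same split: the 9 other acinar genes summed to 141, 346 and 180 CPM (UMIs scaled to a total of 1000000) in ductal-gate cells, against 4517, 2780 and 5647 CPM in acinar-gate cells. The 8 other ductal genes summed to 9182, 7760 and 11468 CPM in ductal-gate cells, against 2217, 2383 and 2921 CPM in acinar-gate cells. Of these 8, 6 were higher in the ductal gate, Sox9 did not pass the test and Spp1, a duct marker of the normal pancreas, was lower by a log2 difference of -1.28. Lists of endothelial, fibroblast, erythroid, endocrine and leukocyte markers stood between 0 and 13 CPM in both gates.

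Ribosome biogenesis and MYC target genes were lower in ductal-gate than in acinar-gate cells of all 3 tumours. Summed over the 37 genes, the level was 13627, 12333 and 10575 CPM in the ductal gate of tumours 1, 2 and 3 (mean 12178 ± 1532, SD, n = 3), against 20873, 27559 and 15213 CPM in the acinar gate (21215 ± 6180). The ductal levels all lay below the acinar ones, at 0.653, 0.448 and 0.695 of the acinar level of the same tumour. Tested gene by gene on UMIs summed per tumour and gate, with the tumour as a block, 31 of the 37 were lower in the ductal gate, 0 were higher and 6 did not pass (edgeR's quasi-likelihood test, adjusted p below 0.05). Over all 6873 genes tested, 15.3% were lower and 18.1% higher. The median log2 difference was -0.68 over the 37 genes, against 0.01 over all genes, and ran between -1.46 for Srm and -0.24 for Nop10. Levels were lower in the ductal gate in 3 of 3 tumours for 34 of the 37 genes, as for 23.9% of all genes tested, and 18 of the 37 had all 3 ductal values below all 3 acinar values, as did 14.0% of all genes tested. None had all ductal values above all acinar ones, which 20.4% of genes did. Without tumour 1 the test called 20 genes, without tumour 3 also 20, and without the tumour block 18, with 0 higher each time. With the shared barcodes kept it called 29. The share of all genes called under each of these changed settings was not counted. Of the 31 genes, 13 stayed called under each of 18 alternatives, while Cdk4, Bop1 and Rcl1 did so under 7, 8 and 9. Gates of 1 tumour come from the same animal, and a difference in CPM is one in the share of a cell's RNA, not in RNA per cell.

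**Figure D1:**
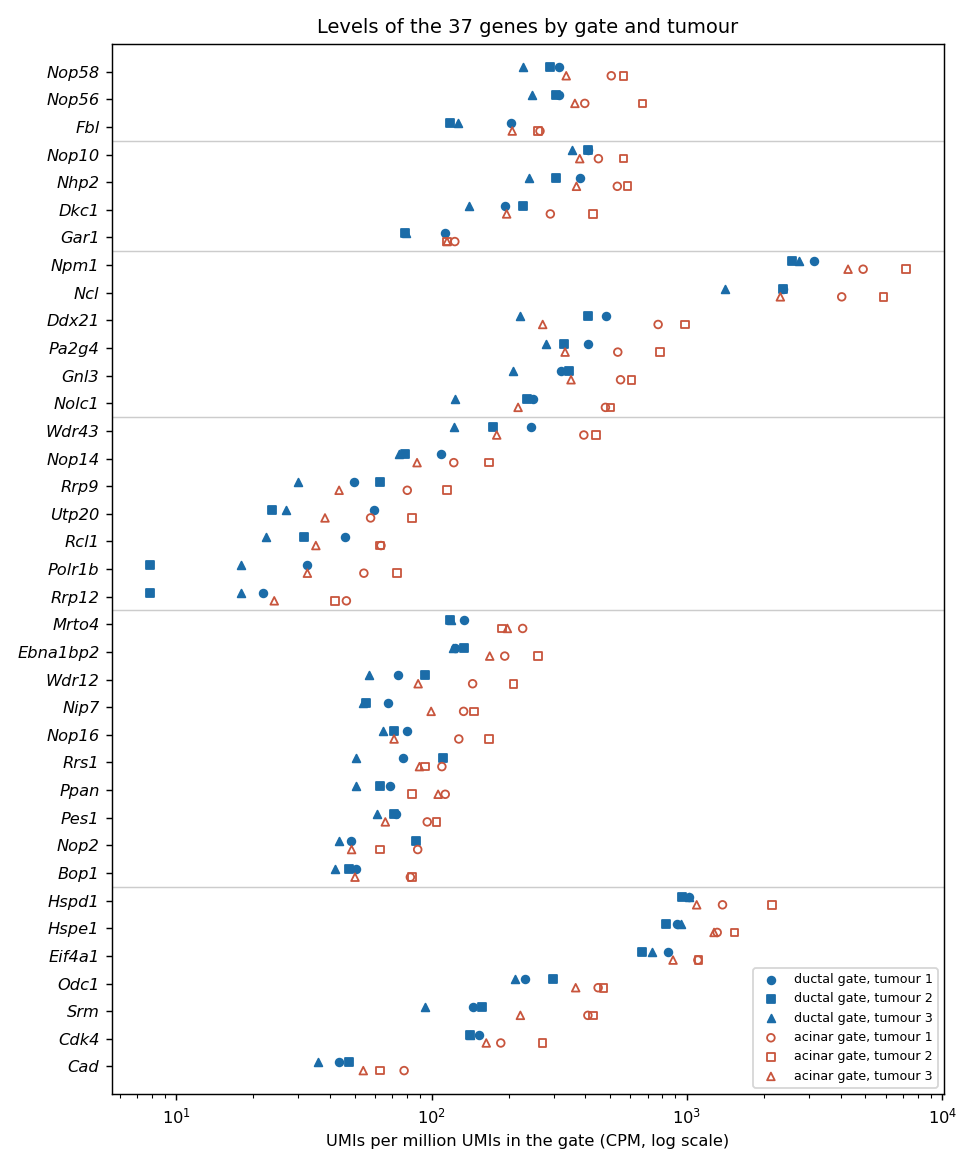
Level of each of the 37 genes (log axis, CPM) in the ductal gate (filled) and the acinar gate (open) of tumours 1, 2 and 3, with grey lines between role groups. The ductal values lie left of the acinar value of the same tumour for 34 genes in all 3 tumours.

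MYC and its partner MAX are known to bind the letters CACGTG, the E-box. RefSeq's promoter windows (GRCm38.p6, 250 bases before to 50 after a gene's start, both strands searched; the motif reads the same on both) were at hand for 31 of the 37 genes, and 7 of these (22.6%) held it, against 12.9% of the genes tested and 8.09% of all genes with a window. The related letters CACGCG, read on either strand, were in 11 of the 31 (35.5%), against 22.2% of the genes tested. Printed here are 4 of the 7 windows: Cdk4 with 4 copies, Hspd1 and Wdr43 with 1 copy, all lower in the ductal gate, and Nop2 with 1 copy and no call. Capitals mark CACGTG.
Cdk4 (chr10:127063285-127063584, + strand): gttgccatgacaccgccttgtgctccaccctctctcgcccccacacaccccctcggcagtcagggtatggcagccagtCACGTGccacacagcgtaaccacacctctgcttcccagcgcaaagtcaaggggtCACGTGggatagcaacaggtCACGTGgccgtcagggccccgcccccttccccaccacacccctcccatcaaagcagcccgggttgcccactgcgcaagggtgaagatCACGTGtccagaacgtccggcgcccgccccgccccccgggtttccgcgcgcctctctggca
Hspd1 (chr1:55088194-55088493, - strand): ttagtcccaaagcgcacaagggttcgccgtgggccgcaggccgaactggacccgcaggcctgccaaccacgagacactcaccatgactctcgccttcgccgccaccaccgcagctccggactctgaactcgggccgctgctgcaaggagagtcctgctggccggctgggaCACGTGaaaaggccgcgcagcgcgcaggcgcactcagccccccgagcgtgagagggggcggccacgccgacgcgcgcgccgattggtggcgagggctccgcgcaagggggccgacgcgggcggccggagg
Wdr43 (chr17:71615965-71616264, + strand): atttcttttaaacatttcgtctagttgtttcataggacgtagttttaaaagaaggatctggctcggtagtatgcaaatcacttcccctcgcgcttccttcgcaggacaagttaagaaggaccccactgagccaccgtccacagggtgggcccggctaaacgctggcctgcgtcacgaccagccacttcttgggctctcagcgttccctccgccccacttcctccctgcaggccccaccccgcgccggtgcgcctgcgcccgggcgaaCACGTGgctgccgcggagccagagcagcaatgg
Nop2 (chr6:125131633-125131932, + strand): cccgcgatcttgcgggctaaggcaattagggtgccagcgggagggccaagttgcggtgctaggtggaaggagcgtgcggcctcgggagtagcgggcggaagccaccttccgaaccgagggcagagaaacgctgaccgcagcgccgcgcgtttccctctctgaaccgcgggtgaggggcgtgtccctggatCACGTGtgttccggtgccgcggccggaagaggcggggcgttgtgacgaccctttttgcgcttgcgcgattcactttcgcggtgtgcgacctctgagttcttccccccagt
The copies of Cdk4 began 172, 118, 98 and 11 bases before the start, that of Hspd1 80 and that of Nop2 60 bases before it, and that of Wdr43 at base 18 of the transcript. Hspd1 has another listed start whose window held none. The other 3 genes with the motif were Eif4a1, Pes1 and Utp20. Of the 7 genes with the motif, 4 were lower in the ductal gate and 3 did not pass, with a median log2 difference of -0.46; of the 24 without it, 21 were lower and 3 did not pass, with a median of -0.72. Npm1, Rrp12, Rrs1, Srm, Bop1 and Fbl, which make up the rest of the 37, had no window and were all lower in the ductal gate. The motif groups were not tested against each other, and a match is a description of letters, not of binding.

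Box C/D snoRNPs guide methylation of ribosomal RNA, and their 3 measured core proteins were all lower in the ductal gate. Nop58, a scaffold protein of the particle, was at 315, 291 and 227 CPM in ductal-gate cells of tumours 1, 2 and 3, against 505, 564 and 336 CPM in acinar-gate cells. The ranges did not overlap, and the log2 difference was -0.74 ± 0.14 (SE, adjusted p = 5.24e-05). Its partner Nop56 and the methyltransferase gene Fbl differed by -0.62 and -0.68, also without overlap. H/ACA snoRNPs turn uridine into pseudouridine, and here 2 of 4 genes passed. Nhp2, an RNA-binding core protein, was at 379, 307 and 240 CPM in the ductal gate, against 533, 585 and 369 CPM in the acinar gate; it was lower in each tumour, although the ductal value of tumour 1 lay above the acinar value of tumour 3 (log2 difference -0.68 ± 0.14, adjusted p = 0.000222). The pseudouridine synthase gene Dkc1 was lower by a log2 difference of -0.66. Gar1 gave -0.44 ± 0.18 (adjusted p = 0.0595) and Nop10, the smallest core protein of the particle, -0.24 ± 0.14 (adjusted p = 0.193). Nop10 had 411, 409 and 355 CPM in the ductal gate, against 450, 564 and 380 CPM in the acinar gate. Its values in the 2 gates overlapped between tumours and lay closest together in tumour 3.

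All 6 nucleolar chaperones and regulators were lower in the ductal gate. Npm1, nucleophosmin, an abundant histone and ribosome chaperone, was at 3153, 2566 and 2755 CPM in ductal-gate cells, against 4894, 7211 and 4272 CPM in acinar-gate cells. The ranges did not overlap (log2 difference -0.92 ± 0.20, adjusted p = 0.000335). Npm1 together with Ncl, nucleolin, made up 40.6%, 40.1% and 39.4% of the UMIs of the 37 genes in the ductal gate, against 42.8%, 47.5% and 43.3% in the acinar gate. Nolc1, a snoRNP chaperone of the nucleolus, was at 249, 236 and 124 CPM, against 479, 502 and 218 CPM in the acinar gate. It was lower in each tumour, by a log2 difference of -0.98 ± 0.14 (adjusted p = 1.25e-06). Ncl, the GTPase gene Gnl3, the RNA helicase gene Ddx21 and Pa2g4, which encodes an ErbB3-binding growth regulator, gave -0.93, -0.83, -0.71 and -0.55. Without Npm1, Ncl, Hspd1, Hspe1 and Eif4a1, the 5 most abundant of the genes, the others summed to 5319, 4943 and 3707 CPM in the ductal gate, against 8153, 9678 and 5373 CPM in the acinar gate, so the summed difference did not rest on those 5.

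Of the 7 genes of RNA polymerase I and small subunit processing, 5 were lower in the ductal gate. Wdr43, a factor of the processome that cuts and folds the small subunit precursor, was at 245, 173 and 122 CPM in ductal-gate cells, against 394, 439 and 180 CPM in acinar-gate cells. It was lower in every tumour, and the ductal value of tumour 1 lay above the acinar value of tumour 3 (log2 difference -0.79 ± 0.15, adjusted p = 5.77e-05). Polr1b, the second largest subunit of RNA polymerase I, was at 32.6, 7.87 and 17.9 CPM in the ductal gate, against 54.2, 73.2 and 32.6 CPM in the acinar gate. These values rest on 27, 1 and 12 UMIs in the ductal gate and 48, 7 and 151 in the acinar gate, and the log2 difference was -1.01 ± 0.29 (adjusted p = 0.00654). Its call was lost under 4 of 17 alternatives, which were DESeq2 (adjusted p = 0.111), no tumour block (0.0606), no tumour 3 (0.0824) and a gate of 6000 CPM (0.0668), while the log2 difference stayed between -1.35 and -0.78. Rrp12, Rrp9 and Rcl1, factors of subunit export and of small subunit processing, gave -0.97, -0.73 and -0.66. Nop14 gave -0.37 ± 0.18 (adjusted p = 0.121). Utp20, a large scaffold of the small subunit precursor, gave -0.40 ± 0.25 (adjusted p = 0.234), with 59.2, 23.6 and 26.9 CPM in the ductal gate and 57.6, 83.6 and 38.2 CPM in the acinar gate; tumour 1 thus went the other way.

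Of the 10 genes of large subunit assembly, 8 were lower in the ductal gate. Mrto4, which holds the place of a stalk protein on the immature subunit, was at 134, 118 and 119 CPM in ductal-gate cells, against 227, 188 and 198 CPM in acinar-gate cells. The gates did not overlap, and the log2 difference was -0.83 ± 0.16 (adjusted p = 9.12e-05). Nip7, an assembly factor of the subunit's early precursors, was at 67.6, 55.1 and 53.7 CPM, against 133, 146 and 99.4 CPM in the acinar gate, again without overlap (log2 difference -1.06 ± 0.19, adjusted p = 3.97e-05). Wdr12, Bop1 and Pes1 encode the subunits of the PeBoW complex, and they did not pass together: Wdr12 and Bop1 were lower by log2 differences of -0.93 ± 0.19 and -0.60 ± 0.22, and Pes1 gave -0.37 ± 0.20 (adjusted p = 0.153). Differences between these subunits were not tested. Nop2, a ribosomal RNA methyltransferase gene, gave -0.51 ± 0.23 (adjusted p = 0.0869), with 48.3, 86.6 and 43.3 CPM in the ductal gate and 88.1, 62.7 and 48.5 CPM in the acinar gate. In tumour 2 it went the other way, as did Rrs1, which passed over the 3 tumours (-0.64 ± 0.20) with 77.3, 110 and 50.7 CPM in the ductal gate and 110, 94.1 and 89.5 CPM in the acinar gate. Ppan, Ebna1bp2 and Nop16 gave -0.94, -0.69 and -0.59.

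All 7 genes of growth metabolism, chaperonin, cell cycle and translation were lower in the ductal gate. Hspd1, the mitochondrial chaperonin, was at 1022, 952 and 1020.2 CPM in ductal-gate cells, against 1377, 2153 and 1091 CPM in acinar-gate cells. The gates did not overlap, although tumour 3 showed a ratio of 0.936 (log2 difference -0.54 ± 0.17, adjusted p = 0.011). The call was lost without tumour 1 (adjusted p = 0.0884), without tumour 2 (0.103) and with 50 cells per sum (0.0858). Its co-chaperonin Hspe1, which lies head to head with Hspd1 on chromosome 1, differed by -0.62. Srm, spermidine synthase, had the largest difference of the 37, at 145, 157 and 94.0 CPM in the ductal gate, against 409, 429 and 222 CPM in the acinar gate. The ranges did not overlap, and the ratios of 0.354, 0.367 and 0.423 gave a log2 difference of -1.46 ± 0.15 (adjusted p = 1.28e-09). Odc1, which makes the putrescine that Srm uses, was at 232, 299 and 212 CPM, against 448, 470 and 366 CPM in the acinar gate (-0.90 ± 0.14, adjusted p = 4.85e-06). Both polyamine genes stayed called under 18 of 18 alternatives. Cad, the enzyme that opens pyrimidine synthesis, gave -0.78, the translation helicase gene Eif4a1 -0.46 and the cyclin D kinase gene Cdk4 -0.41 (adjusted p = 0.0422).

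**Figure D2:**
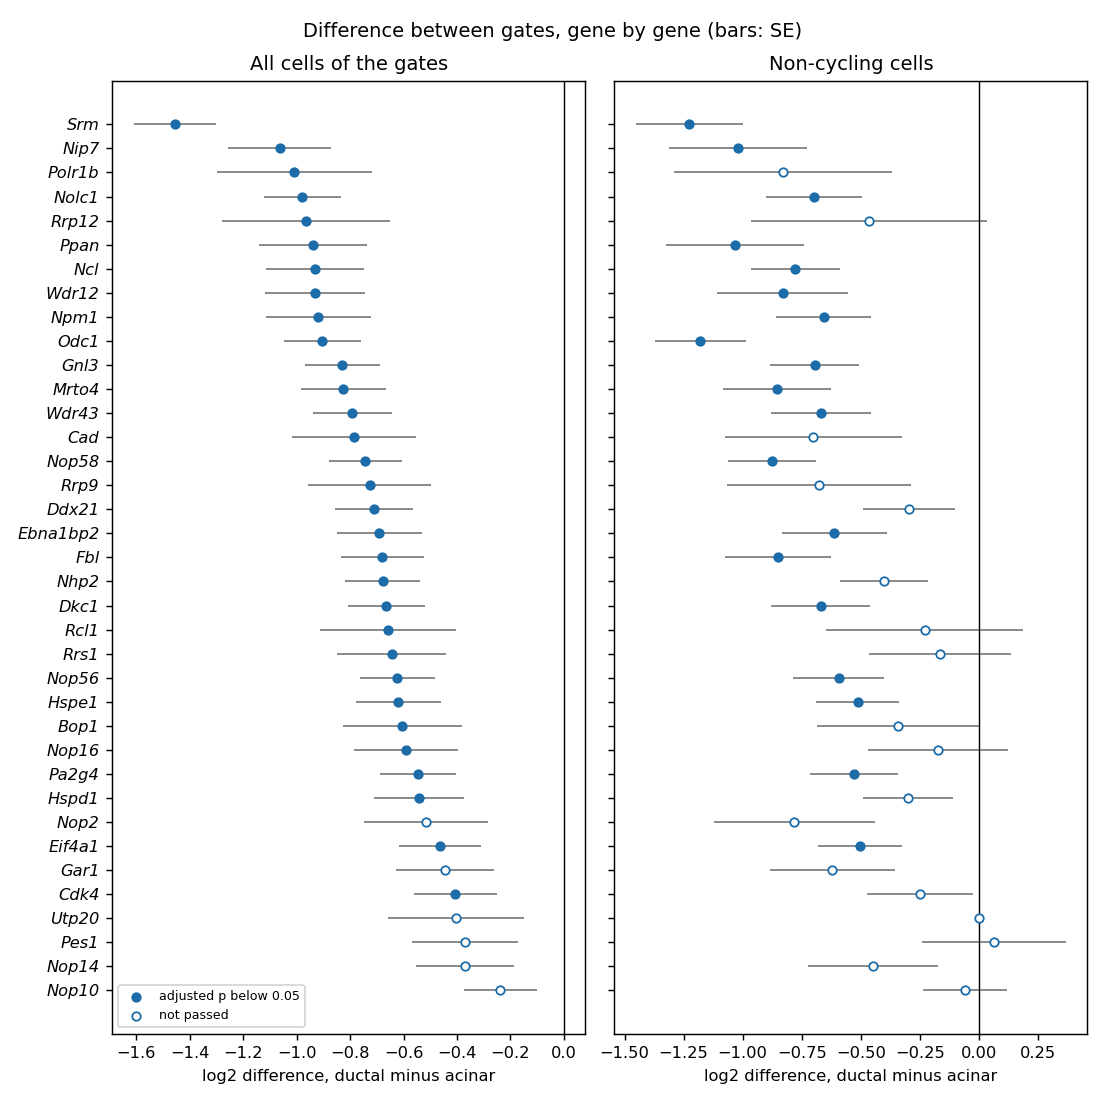
Log2 difference, ductal minus acinar gate, of the 37 genes ordered by size, with SE bars, in all cells of the gates (left) and in non-cycling cells (right; no SE is drawn for Utp20, whose value was near 0). Filled points passed the test: 31 in all cells and 19 in non-cycling cells.

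Other genes of the same pathways, taken from lists of known members, were also called lower in the ductal gate, in smaller shares than the 37. For comparison, 15.3% of all 6873 genes tested were lower and 18.1% higher. Of 41 other genes of the small subunit processome 13 were lower and 0 higher (median log2 difference -0.42), led by the methyltransferase gene Dimt1 at -1.27 and Utp15 at -1.22. Of 37 other large subunit factors 10 were lower, led by Nol9 at -1.01, and Las1l (0.68) and Eif6 (0.37) were higher (median -0.36). Among 12 genes of RNA polymerase I and its factors 4 were lower, with Taf1d at -1.20 and Polr1a, the largest subunit, at -0.71 (median -0.47). Nucleotide and one-carbon synthesis had 11 of 18 genes lower, led by the mitochondrial folate enzyme gene Mthfd2 at -1.82 and the purine enzyme gene Pfas at -1.24 (median -0.65). Translation factors had 11 of 28 lower, led by Eif2b3 at -1.48 and Eif3g at -0.73, and 1 higher, Eif3f at 0.41 (median -0.32). Chaperonins and prohibitins had 7 of 12 lower, led by Cct7 at -0.65 and Cct5 at -0.56 (median -0.39). Among non-cycling cells, defined below, fewer of these genes were lower, where 9.26% of all genes tested were. They were 6 of 39 processome, 1 of 35 large subunit and 1 of 11 RNA polymerase I genes. Nucleotide and one-carbon synthesis had 4 of 16, translation factors 6 of 28 and chaperonins and prohibitins 1 of 12. The medians of these lists ran between -0.52 and -0.19 there.

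The ribosomal proteins themselves did not share this difference. Their 80 genes summed to 257632, 246596 and 223604 CPM in the ductal gate, against 223072, 220400 and 208793 CPM in the acinar gate. Of the 77 tested, 1 was lower (Rps27l, -0.44), 0 were higher and 76 did not pass, with a median log2 difference of 0.14; with library totals as the scaling, which moved the median of all genes to 0.10, 7 were higher and 1 lower. No test between the lists was made. Myc itself was at 39.8, 47.2 and 40.3 CPM in the ductal gate, against 59.9, 52.3 and 72.3 CPM in the acinar gate (log2 difference -0.78 ± 0.23, adjusted p = 0.00857), from 33, 6 and 27 UMIs against 53, 5 and 335. The call was lost without tumour 3 (adjusted p = 0.382), with DESeq2 (0.281), with a gate of 6000 CPM (0.482), with cells thinned (0.0634) and without cells rich in ribosomal RNA locus genes (0.114). Whether these UMIs come from the native gene or the transgene is not told apart by the counts. Of 8 genes of the MYC network tested, Mxd4, an antagonist of MYC, was higher (0.85 ± 0.31, adjusted p = 0.0316), and the other 6 did not pass.

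**Figure D3:**
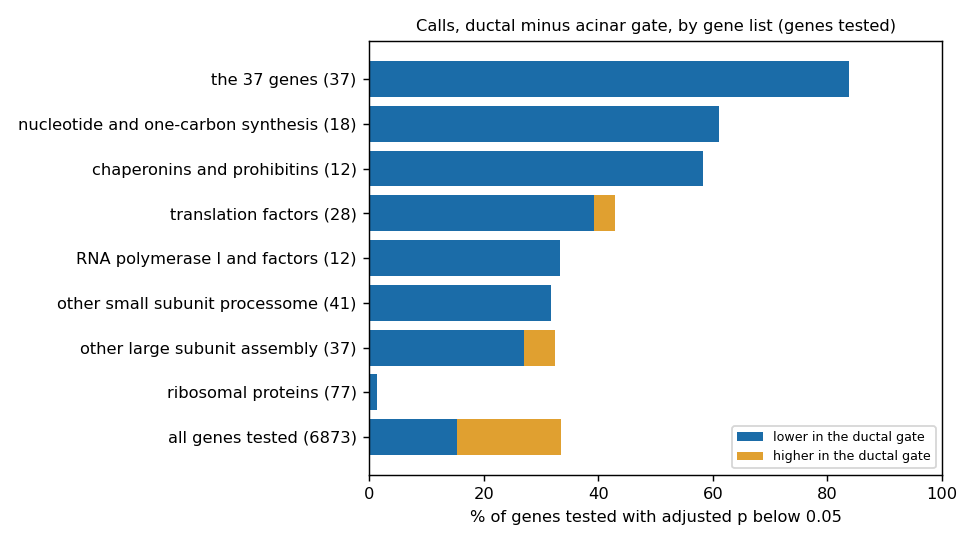
Share of each list's tested genes (number in brackets) that were lower or higher in the ductal than in the acinar gate, with all 6873 tested genes at the bottom. The 37 genes have 31 lower and the 77 ribosomal protein genes 1.

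Cell by cell, the difference was a shift of the whole distribution, with overlap. After each cell was thinned to 1000 UMIs, so that depth was equal, ductal-gate cells held a mean of 12.8, 12.2 and 9.20 UMIs of the 37 genes in tumours 1, 2 and 3 (SD over cells 5.28, 4.47 and 5.03), against 19.6, 25.1 and 13.7 in acinar-gate cells (8.11, 8.66 and 5.53). The 10th to 90th percentiles of ductal cells ran over 7 to 19, 6 to 17.3 and 4 to 16 UMIs, against 10 to 30, 15.2 to 36.6 and 8 to 21 in acinar cells. The variance over the mean, which is near 1 for pure counting noise, was 2.17, 1.64 and 2.75 in ductal cells, against 3.35, 2.98 and 2.24 in acinar cells. Within ductal cells of tumour 3 the level went down as the gate genes went up: 12704 CPM where Tff1 and Lgals4 summed to 3000 to 6000 CPM, 9530 CPM at 6000 to 12000 and 9012 CPM above that. In tumour 2 the values over the same steps were 13432, 12269 and 10773 CPM. Tumour 1 had 13547, 14717 and 11867 CPM, so its middle step was the highest. The list of 45 cell cycle genes was at 3061, 2121 and 1781 CPM over the 3 steps in tumour 1, at 2148, 1652 and 1340 CPM in tumour 2 and at 2155, 1446 and 1447 CPM in tumour 3. It was highest at the first step in every tumour, and the last step lay below the first for both it and the 37 genes, while at the middle step of tumour 1 they went opposite ways.

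**Figure D4:**
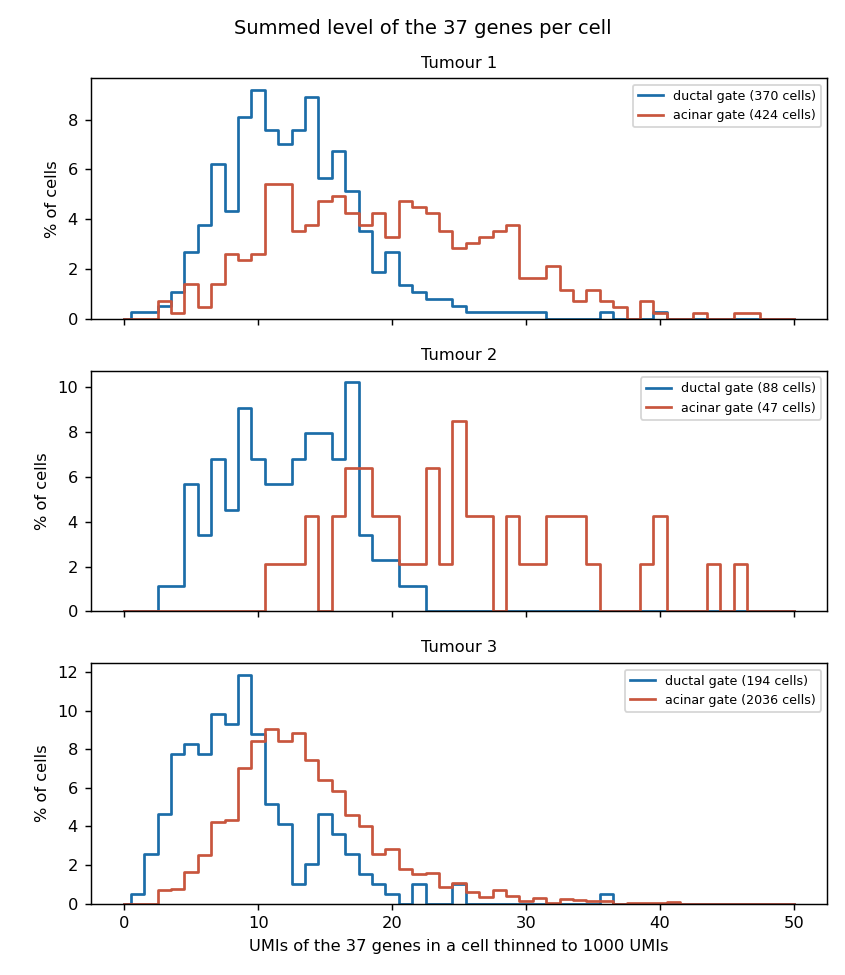
Share of cells (y axis) by their UMIs of the 37 genes after thinning to 1000 UMIs per cell (x axis), for the ductal and the acinar gate of tumours 1, 2 and 3. The mean is 12.8, 12.2 and 9.20 in ductal cells, against 19.6, 25.1 and 13.7 in acinar cells.

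Ribosome biogenesis is known to run high in dividing cells, and the gates differed in that respect. A cell counted as cycling with 3 or more UMIs of a list of 45 cell cycle genes after thinning, and as non-cycling with 1 or 0. Of ductal-gate cells 33.5%, 28.4% and 19.1% were cycling, against 65.1%, 80.9% and 52.5% of acinar-gate cells, and the list itself was at 2391, 1771 and 1713 CPM against 3792, 4943 and 3304 CPM. Within non-cycling cells 19 of the 37 genes were still lower in the ductal gate and 0 higher, where 9.26% of 5581 genes tested were lower and 11.4% higher, and the median log2 difference was -0.62. Within cycling cells 23 were lower and 0 higher, against 9.64% of genes lower and 12.2% higher, with a median of -0.69. The 2 sets shared 18 genes, 18 of the 19 and 18 of the 23, and they share no cells but do share tumours. Srm passed in both, with log2 differences of -1.23 ± 0.23 and -1.57 ± 0.21. The non-cycling acinar cells rest on 88 cells of tumour 1 and 542 of tumour 3, since tumour 2 had 3. Without tumour 3, 2 genes were called in non-cycling cells; without tumour 1, 6 were, and without the tumour block 6; over 18 alternatives the median stayed between -0.72 and -0.39. On CPM, before the scaling of the fit and with 1 CPM added, the median log2 ratio of the 37 genes in non-cycling cells was -0.23 in tumour 1 and -0.49 in tumour 3, against 0.17 and 0.21 over all genes tested. In cycling cells it was -0.58, -0.96 and -0.23 in tumours 1, 2 and 3, against 0.11, -0.12 and 0.28 over all genes tested. The medians were below 0 in every tumour measured, and tumour 1 was nearest to 0 in non-cycling cells and tumour 3 in cycling cells. Without tumour 1, 5 genes were called in cycling cells, and without tumour 3, 12. With the shared barcodes kept the counts were 20 in non-cycling and 21 in cycling cells. For these changed settings too, shares of all genes called were not counted.

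Within a gate, cycling cells held more of these UMIs on average. Thinned cycling and non-cycling cells of the ductal gate held a mean of 15.2 and 11.3 UMIs in tumour 1, 13.0 and 12.2 in tumour 2, and 12.6 and 8.02 in tumour 3. In the acinar gate the means were 21.8 and 14.5 in tumour 1 and 14.6 and 12.3 in tumour 3. On CPM with 1 added, the 37 genes had a median log2 ratio, cycling over non-cycling, of 0.25, 0.01 and 0.61 in ductal cells. Over all genes tested it was 0.18, 0 and 0.20. In acinar cells of tumours 1 and 3 it was 0.54 and 0.32, against 0.20 and 0.15 over all genes. AY036118 and Gm42418, over the ribosomal RNA locus, were lower in cycling acinar cells, which leaves more of 1000 UMIs for other genes. The part of this was not tested. Gene by gene, with cycling minus non-cycling cells, 1 of the 37 was higher in the ductal gate. This was Odc1, by a log2 difference of 0.74 ± 0.20 (adjusted p = 0.0212), where 1.51% of genes were higher and 2.04% lower. In the acinar gate 1 was higher, the helicase gene Ddx21 (0.65 ± 0.18, adjusted p = 0.0367), where 0.0896% of genes were higher and 1.36% lower. Both calls were lost under several alternatives. The median was 0.17 over the 37 genes in the ductal gate and 0.24 in the acinar gate, against -0.05 and -0.01 over all genes. No gene of the 37 passed the test of whether the gate difference itself depended on cycling, where 0.0179% of all genes were lower and 0.0896% higher; Odc1 came nearest, with 0.59 ± 0.26 (unadjusted p = 0.0265, adjusted p = 0.858), and DESeq2 called 0 of the 37 as well. The 1 gene behind the lower share was Myc. Cycling ductal-gate cells held it at 12.7, 28.1 and 16.5 CPM in tumours 1, 2 and 3, from 4, 1 and 3 UMIs, against 64.0, 36.5 and 82.3 CPM in cycling acinar-gate cells (log2 difference -2.40 ± 0.45, adjusted p = 1.78e-05). In non-cycling cells Myc gave 0.09 ± 0.34 (adjusted p = 0.89), with 50.6 and 52.8 CPM in the ductal gate and 45.8 and 48.6 CPM in the acinar gate of tumours 1 and 3. The gate difference of Myc depended on cycling by -2.49 ± 0.58 (adjusted p = 0.0455), and this call was lost under 13 of 16 alternatives, DESeq2 and each tumour left out among them (adjusted p up to 1). Cycling itself was set by other genes, and within the ductal gate Myc was lower in cycling cells (-2.00 ± 0.51, adjusted p = 0.0129). This call was lost without tumour 1 (log2 difference -1.80) and without tumour 3 (-2.06). It was also lost with DESeq2 (adjusted p = 0.082) and, in edgeR's test, without the tumour block (0.059). The same held with a gate of 6000 CPM (0.266), a gate share of 90% (0.0622) and the deepest cells left out (0.112). Across cells, the thinned UMIs of the 37 genes and of the cell cycle list had a Spearman's rho of 0.331, 0.0106 and 0.244 in ductal cells and 0.442, 0.311 and 0.200 in acinar cells of tumours 1, 2 and 3; these points share a library and a fixed depth, and the values are a description.

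Signs of RNA quality also moved with the gates. Cells with over 10% of their UMIs in Gm42418, AY036118 and Gm26917, genes over the ribosomal RNA locus, and Lars2 made up 4.32%, 10.2% and 0% of the ductal gate, against 33.3%, 8.51% and 71.7% of the acinar gate. The median mitochondrial share was 3.52%, 3.61% and 4.36% in ductal cells, against 1.84%, 1.68% and 0.458% in acinar cells, and Malat1, a nuclear RNA, was at 3400, 5439 and 8242 CPM against 2713, 1975 and 3733 CPM. Acinar cells with over 10% of such UMIs held the 37 genes at 13783 CPM in tumour 1 and 12302 CPM in tumour 3, against 23235 and 18020 CPM in the other acinar cells. With these cells left out 31 of the 37 genes were lower in the ductal gate, and with the 4 genes dropped from counts and totals also 31. The shares of all genes called lower under these 2 settings were not counted. Deeper cells held more in tumours 1 and 3: ductal cells with 2500 or more UMIs were at 14958 CPM in tumour 1 and 11504 CPM in tumour 3, against 11873 and 7936 CPM in those with 1000 to 1500, and acinar cells were at 24139 and 18201 against 18925 and 12774 CPM. In tumour 2 cells of 1500 to 2500 UMIs were at 12785 CPM in the ductal gate (16 cells), against 11811 CPM in those with 1000 to 1500, and the 11 such cells of the acinar gate were lower, at 20497 against 26982 CPM. Across cells, the thinned UMIs of the 37 genes and of the ribosomal RNA locus genes had a rho of -0.0660, 0.199 and -0.0116 in the ductal gate of tumours 1, 2 and 3, against -0.501, -0.0966 and -0.353 in the acinar gate. The values furthest from 0 were those of acinar cells of tumours 1 and 3, both below 0, while ductal cells of tumour 2 went the other way. At a fixed total of 1000 UMIs, genes that take a large share leave less for all others, and these values are a description. The part of mitochondrial share and Malat1 in the difference was not tested.

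Smaller populations had low levels too. A gate set by Msln, Tm4sf1 and F3, genes of mesothelin-positive epithelium, held 11 and 12 cells in tumours 1 and 3, and the 37 genes summed to 8515 CPM (95% Poisson interval 7496 to 9634) and 10184 CPM (9521 to 10880) there. Those values were 0.625 and 0.963 of the ductal level and 0.408 and 0.669 of the acinar level of the same tumour. The squamous gate, set by the keratins Krt5 and Krt14, held 45 cells of tumour 3 at 9994 CPM (9573 to 10429), or 0.945 of the ductal and 0.657 of the acinar level; it could be measured in 1 tumour and has no test. These intervals cover counting error only. Malat1 stood at 46259 and 48124 CPM in the gate of Msln, Tm4sf1 and F3, above all other gates of those tumours, and its part in the low level was not tested. Of that gate's cells 1 of 11 was cycling in tumour 1 and 0 of 12 in tumour 3. Its cell cycle genes stood at 710 and 638 CPM, against 2391 and 1713 CPM in the ductal gate. The acinar gate had 3792 and 3304 CPM. In the squamous gate of tumour 3 they stood at 2739 CPM, with 24.4% of cells cycling. The part of cycling in these levels was not tested. With the gate of Msln, Tm4sf1 and F3 widened to 1500 CPM, which gave sums of 20 and 21 cells, 19 of the 37 genes were lower than in the acinar gate. None was higher, where 7.20% of 7213 genes were lower and 8.30% higher. The median was -1.09 over the 37 genes against -0.17 over all genes. Against the ductal gate 1 was lower, Srm at -1.66 ± 0.52 (adjusted p = 0.0304), where 2.77% of genes were lower and 3.33% higher, and the median was -0.34 against -0.17.

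Cells in no gate lay in between. They held the 37 genes at 15146, 18079 and 12170 CPM in tumours 1, 2 and 3, above the ductal and below the acinar gate of each tumour. In barcodes of 10 to 100 UMIs, which hold free RNA, they stood at 8952, 7515 and 7179 CPM, below the 16286, 18300 and 13805 CPM of all cells; each of the 37 genes was lower in free RNA than in cells on average, with a median ratio of 0.548. Free RNA thus held a smaller share of these UMIs than the ductal or the acinar gate in every tumour.

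**Figure D5:**
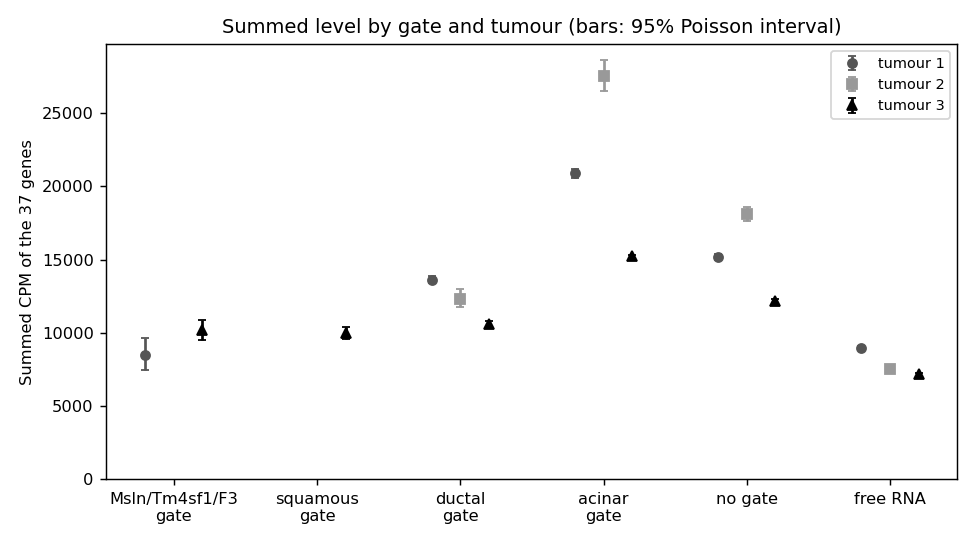
Summed level of the 37 genes (y axis, CPM) by gate and tumour, with 95% Poisson intervals that cover counting error only; sums of fewer than 10 cells are not drawn. Acinar-gate cells lie between 15213 and 27559 CPM and ductal-gate cells between 10575 and 13627 CPM.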

How the data were processed

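The deposited values are raw counts of UMIs, whole numbers per gene and barcode without scaling, which the authors made with Cell Ranger (version 3.0.2 per the file headers). The submitters' processing notes name Cell Ranger 3, mm10 and Seurat 3.1. Each table lists 6794880 barcodes, the full set of possible ones. A cell was a barcode that had at least 1000 UMIs and 500 genes, no more than 20% of UMIs from mitochondrial genes, and 60% or more of all its UMIs in its own library. No doublet caller was run. A gate took cells with 3 or more UMIs and 3000 or more CPM of its genes, and with at least 2/3 of the UMIs of all 9 gate genes. Barcodes in which no gate reached that share fell in none, but a gated cell could still hold some UMIs of other gates' genes. At a gate share of 90% the acinar gate held 289, 36 and 1041 cells of tumours 1, 2 and 3. The ductal gate then held 301, 72 and 153. UMIs were summed per tumour and gate (20 or more cells). edgeR 4.0.16 (R 4.3.3) fitted the 6 sums of the ductal and acinar gates (6878 genes, filterByExpr, TMM, the tumour as a block, 2 residual degrees of freedom) and, for cycling states, 11 sums (5630 genes, 5 degrees of freedom); p-values from glmQLFTest were adjusted after Benjamini-Hochberg over all genes tested, without gate genes and, in the second fit, cell cycle genes. SE is the log2 difference over the root of F. Gates are paired because each tumour, from 1 animal, gave both. Nothing in the labels says that the tumours came from separate donors. With the tumour as a block, p-values measure how differences within a tumour varied over these 3 tumours, with the spread shared across genes.

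On simulated data 46% of log2 changes of 1 and 87% of log2 changes of 2 were recovered for the ductal and acinar gates (6388 genes). The simulation gave all genes the same spread and no tumour effect, and its changed genes were drawn at random. They did not match the 37 genes in level, so these shares do not describe the 37. The planned test of the gate of Msln, Tm4sf1 and F3 could not be fitted at 3000 CPM, where no tumour had 20 cells, and is given at 1500 CPM. The 37 genes, the gates and the other lists were chosen with earlier results of these data known. Genes given in every tumour were, per role group, the one with the highest CPM over all cells and the one with the largest difference, with further genes that went against the rest, and of other lists the 2 called genes with the largest difference. Odc1, Ncl, the PeBoW subunits and other members with values were added after these were seen. Coordinates are those of GRCm38 (mm10). Alternatives were DESeq2 1.42.0 (test and size factors), no low-count filter, no block, each tumour left out, other gates, cells and totals.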

Additional observations from a re-analysis of the deposited data

How the results depend on the processing

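The difference between the ductal and the acinar gate kept its direction for every one of the 37 genes under 18 alternatives (663 of 663 values below 0; fewer than 37 genes passed the filter in some). The number lower was 18 without the tumour block (no replicate block), 20 to 31 with each tumour left out and 18 to 32 over all, with 0 higher; the block changed no direction. Among the 11 named genes, Polr1b lost its call under 4 of 17 alternatives and Hspd1 under 3 of 18, Nop10 passed under 0 of 18, and the others passed under all 18. Within non-cycling cells the count of 19 became 11 with DESeq2, 12 with no filter, 6 without the block, 11 with library totals, 10 with a gate of 6000 CPM and 2 to 18 with each tumour left out (median log2 difference -0.68 to -0.39). Within cycling cells the count of 23 became 13 with DESeq2, 10 without the block, 11 with library totals, 12 with a gate share of 90%, 12 with cells thinned and 5 to 16 with each tumour left out. The 1 gene higher in cycling acinar cells became 0 with DESeq2, no filter, no block, gates of 1500 or 6000 CPM, 50 cells per sum, the deepest cells left out or cells thinned, 0 with each tumour left out, 2 with library totals (median 0.45) and 4 without cells rich in ribosomal RNA locus genes. The 1 gene higher in cycling ductal cells became 0 with no filter, no block, a gate of 6000 CPM, a gate share of 90%, the deepest cells left out or cells thinned, 0 to 1 with each tumour left out and 2 with library totals. The cause was not tested, and the shares of all genes called under these alternatives were not counted. Library totals and dropping the ribosomal RNA locus genes were added after seeing the data. A home-library share of 90% left 1 ductal-gate and 1 acinar-gate cell, too few to fit, and 50 cells per sum gave no cycling ductal result. Tumour 2 had 47 acinar cells, so genes under 100 CPM rest on few UMIs there.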
